A study of Homo sapiens with 12 samples.

Results

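The mRNAs of the YTH and IGF2BP families of m6A readers were followed in liver cancer cells with and without METTL5. Members were the rows of the deposited all-gene table named YTHDF1, YTHDF2, YTHDF3, YTHDC1, YTHDC2, IGF2BP1, IGF2BP2 and IGF2BP3, which gave 8 of 58884 genes. All 8 passed the filter on low counts, in which 16537 genes were tested. N6-methyladenosine (m6A) is a methyl mark on adenosines of RNA, and reader proteins bind transcripts that carry it. The YTH proteins hold the mark in an aromatic pocket of their YTH domain. The IGF2BP proteins bind RNA through KH and RRM domains and are known for keeping bound mRNAs from decay. IGF2BP1 and IGF2BP3 are called oncofetal because they are made in the embryo, fall silent in most adult tissues and return in many liver cancers. METTL5 itself methylates ribosomal RNA and not mRNA, and the members studied here are readers known mainly from mRNA.

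RNA sequencing was done on HCC-LM3 cells, a human hepatocellular carcinoma line known for metastasis, and on Huh-7 cells, a human hepatocellular carcinoma line known for hepatocyte traits. The groups were METTL5 knockout (KO) HCC-LM3 cells, untreated wild-type (WT) HCC-LM3 cells, METTL5 KO Huh-7 cells and untreated WT Huh-7 cells, with 3 libraries each. The KO cells had been infected with a guide RNA (sgRNA) against METTL5, while the WT cells carry no stated control guide, so infection and loss of METTL5 cannot be told apart. The labels give no age or time point and do not say whether a KO line was 1 clone or a pool, or whether each library had a culture of its own, and the p-values then speak only of variation among libraries, some or all of which may be technical.

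The libraries held 17495280 to 26415554 counts. METTL5 had 0 counts in all 6 KO libraries, against 268, 327 and 325 counts in HCC-LM3 WT and 237, 258 and 169 counts in Huh-7 WT. Of 12 hepatocyte markers, 10 were under 1 CPM in every HCC-LM3 KO library and 10 in every HCC-LM3 WT library, with APOB, APOH and TTR at 0 in both. The same markers summed to 20229 to 20865 CPM in Huh-7 KO and 14194 to 15203 CPM in Huh-7 WT. Epithelial markers summed to 37380 to 38987 CPM in Huh-7 KO and 12421 to 12526 CPM in Huh-7 WT, while leukocyte, endothelial and fibroblast markers each summed to at most 113 CPM in any library. One library stood apart from its group. HCC-LM3 WT replicate 1 differed from replicates 2 and 3 by 35.3 and 29.02 times the sampling variance (chi-square per degree of freedom over genes), against 4.03 between those replicates. For this reason the KO against WT changes of YTHDF1, YTHDF3, YTHDC2, IGF2BP1 and IGF2BP3 in HCC-LM3 are also given without it. Genes of the lists are given with all libraries. By the same measure, pairs of libraries differed by 8.06 to 16.6 in Huh-7 WT, 2.86 to 3.51 in Huh-7 KO and 5.73 to 7.21 in HCC-LM3 KO. The Huh-7 KO libraries also differed in composition from Huh-7 WT. Counts fell on genes with a mean length of 1698 to 1725 bases in Huh-7 KO, against 2731 to 2863 bases in Huh-7 WT. The mean transcript GC content behind the counts was 56.2 to 56.4% in Huh-7 KO and 55.3 to 55.6% in Huh-7 WT. The 100 most abundant genes took 48.2 to 48.7% of counts in Huh-7 KO and 35.0 to 35.8% in Huh-7 WT. HCC-LM3 KO and WT differed in composition too. The mean GC content was 54.2 to 54.4% in HCC-LM3 KO and 53.2 to 53.8% in HCC-LM3 WT. The 100 most abundant genes took 27.9 to 28.3% in HCC-LM3 KO and 24.8 to 27.3% in HCC-LM3 WT. The mean gene lengths of these groups overlapped. Levels are given in CPM (a count over its library's total, after scaling by TMM, the trimmed mean of M-values), and the members' changes are also given from a fit with offsets per library for transcript GC content and gene length. Bulk RNA cannot tell fewer cells with a transcript from less of it per cell.

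The transcripts of the readers were searched for the let-7 site, a sequence feature already linked to the IGF2BP mRNAs. The microRNA let-7 is a known repressor of the IGF2BP mRNAs, and LIN28B is known to block the maturation of let-7. The mature hsa-let-7a-5p (RefSeq, GRCh38.p14, chr11:122146568-122146589, minus strand) is shown with its seed, bases 2 to 8, in capitals. All 8 of the let-7 5p arms in RefSeq that were compared (let-7a to let-7g and let-7i) share this seed.
hsa-let-7a-5p: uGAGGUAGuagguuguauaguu
The site that pairs with the seed, CTACCTC, was searched on the transcript strand in the 3′UTRs of all basic coding transcripts of GENCODE 29 (GRCh38). It was found at 4 places for IGF2BP1, 1 for IGF2BP2 and 1 for IGF2BP3, and at 0 places for each of the 5 YTH genes. Of 19128 genes with a coding 3′UTR, 1957 (10.2%) hold at least 1 match. No other microRNA site was searched. As let-7 was already known for the IGF2BP mRNAs, the split from the YTH mRNAs is a description and not an independent result. The 6 IGF2BP sites are shown with 30 bases each and the match in capitals.
IGF2BP1 site 1 (chr17:49051065-49051094, plus strand): tgcgaagtaaaCTACCTCaaggtatgaagt
IGF2BP1 site 2 (chr17:49053702-49053731, plus strand): agtgctagtaaCTACCTCacagagccccag
IGF2BP1 site 3 (chr17:49054356-49054385, plus strand): aaatggattaaCTACCTCaatccttacagt
IGF2BP1 site 4 (chr17:49055001-49055030, plus strand): ttttgttttatCTACCTCttagcaaaacaa
IGF2BP2 site (chr3:185644209-185644238, minus strand): cacagaagaagCTACCTCaggtgtttttac
IGF2BP3 site (chr7:23311784-23311813, minus strand): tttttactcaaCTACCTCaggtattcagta
A match is a string of letters and does not show that let-7 acts there. LIN28B, the let-7 antagonist, had 0 counts in all 3 HCC-LM3 KO and all 3 HCC-LM3 WT libraries. It averaged 7.31 ± 0.479 CPM in Huh-7 KO and 46.3 ± 0.707 CPM in Huh-7 WT (SD, n = 3 each). Its log2 fold change there was -2.66, and -1.56 with the offsets. DROSHA, DICER1 and TUT4, counted below in the same list as LIN28B, were also called lower in Huh-7 KO. Their log2 fold changes were -3.56, -3.08 and -3.56, and -1.83, -0.65 and -1.47 with the offsets. Small RNA was not measured, so let-7 itself has no value here.

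The upstream sequences of the members were also read. RefSeq start sites matched 6 of the 8 genes (all but YTHDF3 and IGF2BP1), and the 250 bases before each start were searched on both strands for 5 motifs, none of which contains another. The E-box, CACGTG, lay once before YTHDF1 and 2 times before IGF2BP3, and is present in 6.3% of 35116 promoters of the same length. These 2 promoters are printed, up to the first exon of GENCODE 29, because YTHDF1 and IGF2BP3 had the smallest and the largest change of the 8 genes in Huh-7 KO cells by TMM scaling. They were thus picked by their change, and a link between the E-box and the change was not tested. Capitals mark the E-box.
YTHDF1 (GRCh38.p14, chr20:63216235-63216381, minus strand): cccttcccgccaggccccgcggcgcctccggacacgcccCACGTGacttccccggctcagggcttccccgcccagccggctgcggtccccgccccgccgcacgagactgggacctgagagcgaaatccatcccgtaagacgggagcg
IGF2BP3 (GRCh38.p14, chr7:23470492-23470741, minus strand): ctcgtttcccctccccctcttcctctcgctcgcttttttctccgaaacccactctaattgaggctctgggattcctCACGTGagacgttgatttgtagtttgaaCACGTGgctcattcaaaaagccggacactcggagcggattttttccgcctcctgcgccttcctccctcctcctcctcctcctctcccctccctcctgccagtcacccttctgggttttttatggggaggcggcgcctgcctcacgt
The first base of the E-box of YTHDF1 lay 211 bases before the RefSeq start site, and those of IGF2BP3 lay 174 and 146 bases before it. YTHDC1 and YTHDC2 each held the cAMP response element, TGACGTCA, at 97 and 18 bases before the start, a motif found in 1.6% of promoters. The GC box, GGGCGG, was found at 1 or more starts of every matched gene but IGF2BP3, and in 42.6% of promoters. The CCAAT box, spelled as its name, was found before YTHDC2 and at 1 of 2 starts each of YTHDF2 and IGF2BP2 (32.0% of promoters), and the TATA box, TATAAA, at 1 start of IGF2BP2 (10.7% of promoters).

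Levels can be compared between genes only per length, and for this the deposited TPM, which are scaled by transcript length and library, were used. In HCC-LM3 cells YTHDF1 and YTHDF2 led by TPM. YTHDF1 averaged 35.3 ± 2.36 TPM in HCC-LM3 KO and 34.8 ± 2.61 TPM in HCC-LM3 WT, and YTHDF2 averaged 24.2 ± 1.61 TPM in HCC-LM3 KO and 28.3 ± 4.85 TPM in HCC-LM3 WT (SD, n = 3 each). In WT the ranges of these genes overlapped, in KO they did not. IGF2BP1, IGF2BP3, YTHDF3, IGF2BP2 and YTHDC1 followed, at 5.90 to 13.1 TPM in HCC-LM3 KO and 7.95 to 13.6 TPM in HCC-LM3 WT. The ranges of neighbours in that middle order overlapped, except that IGF2BP1 stood above IGF2BP3 in KO. YTHDC2 was lowest, at 1.34 ± 0.128 TPM in HCC-LM3 KO and 2.79 ± 1.05 TPM in HCC-LM3 WT. The order depends on the unit. In RPKM computed from the TMM-scaled counts and deposited gene lengths, YTHDF3 made up 22.9 to 31.3% of the YTHDF sum in HCC-LM3 WT and overlapped YTHDF2 at 30.5 to 32.1%.

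In Huh-7 cells IGF2BP1 and YTHDF1 led. IGF2BP1 averaged 2.47 ± 0.125 TPM in Huh-7 KO and 20.4 ± 1.13 TPM in Huh-7 WT, and YTHDF1 averaged 3.65 ± 0.1 TPM in Huh-7 KO and 20.4 ± 0.520 TPM in Huh-7 WT (SD, n = 3 each). These genes overlapped in WT, and in KO YTHDF1 was above IGF2BP1 in every library. YTHDF2, IGF2BP2 and YTHDC1 came next in WT at 9.37 to 10.4 TPM, followed by YTHDF3 at 6.09 ± 1.12 TPM and IGF2BP3 at 4.86 ± 0.938 TPM (SD, n = 3). The ranges of YTHDF2, IGF2BP2 and YTHDC1 overlapped as neighbours in WT, as did those of YTHDF3 and IGF2BP3. In Huh-7 KO these 5 genes averaged 0.303 to 0.643 TPM with overlapping neighbours, and YTHDC2 was lowest in both genotypes, at 0.0333 ± 0.0252 TPM in Huh-7 KO and 1.14 ± 0.254 TPM in Huh-7 WT.

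**Figure D1:**
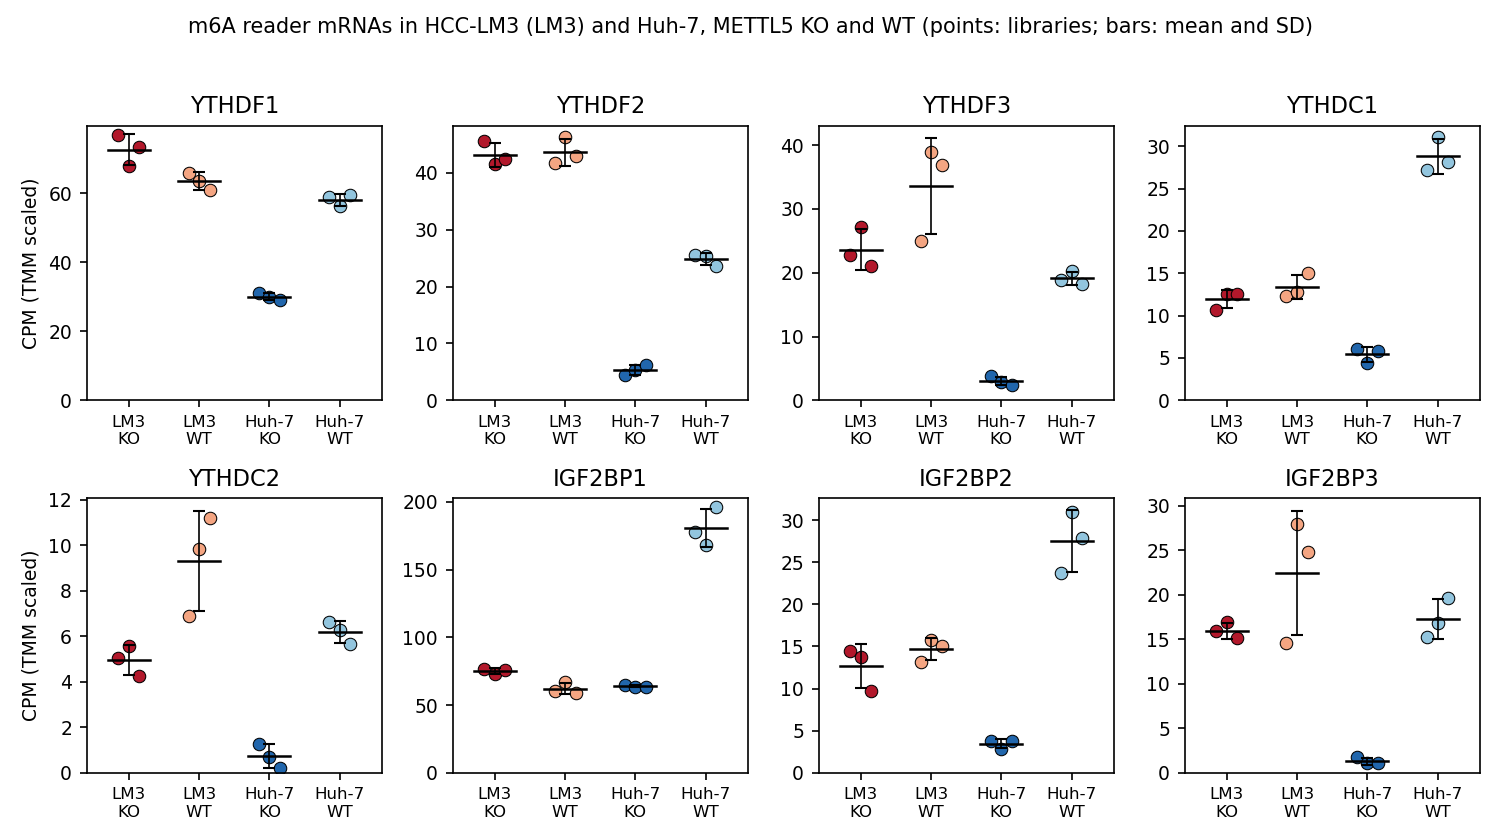
Level of each m6A reader mRNA in CPM (y axes, TMM scaled, each from 0) in the 3 libraries of each group (x axis), with mean and SD. All 8 readers sit lower in Huh-7 KO than in Huh-7 WT with no overlap, while in HCC-LM3 the KO and WT points lie close together or overlap.

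Loss of METTL5 in Huh-7 cells went with lower levels of every reader mRNA. All 8 members were called lower (edgeR's quasi-likelihood test, p-values adjusted by Benjamini-Hochberg across every tested gene, threshold 0.05), with log2 fold changes of -3.69 to -0.95. The background was high: 75.0% of all genes tested were called in Huh-7 KO against Huh-7 WT, 43.2% lower and 31.7% higher. The libraries did not overlap for 8 of 8 members, against 76.5% of all genes tested. The median log2 fold change was -2.52 over the 8 members and -0.30 over all genes tested. With DESeq2 size factors the medians were -2.08 for members and 0.00 for all genes, and with library totals alone -3.63 and -1.40. With the offsets for GC content and length, 7 members were called lower and 1 higher, where 27.4% of all genes were called lower and 29.7% higher, and the members' median was -1.32 against 0.00 for all genes.

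Among the cytoplasmic YTHDF proteins, YTHDF1 is known for promoting translation of marked mRNAs, YTHDF2 for recruiting the CCR4-NOT deadenylase and so speeding their decay, and YTHDF3 for working with both. YTHDF1 (ENSG00000149658, chromosome 20 from 63195429 to 63216234, minus strand, 5 merged exons) had 31.1, 29.9 and 29.2 CPM in Huh-7 KO, against 58.9, 56.2 and 59.4 CPM in Huh-7 WT. It was 1.93-fold lower (log2 fold change -0.95, SE 0.10, adjusted p = 8.51e-11, edgeR), the smallest fall of the 8 genes by TMM scaling. YTHDF2 (ENSG00000198492, chromosome 1 from 28736621 to 28769775, plus strand, 7 merged exons) had 4.44, 5.36 and 6.15 CPM in Huh-7 KO, against 25.6, 25.4 and 23.6 CPM in Huh-7 WT. It was 4.70-fold lower (log2 fold change -2.23, SE 0.14, adjusted p = 3.60e-16, edgeR). YTHDF3 (ENSG00000185728, chromosome 8 from 63168553 to 63212786, plus strand, 9 merged exons) had 3.75, 2.91 and 2.42 CPM in Huh-7 KO, against 18.8, 20.2 and 18.3 CPM in Huh-7 WT. It was 6.26-fold lower (log2 fold change -2.65, SE 0.20, adjusted p = 1.11e-12, edgeR). KO and WT values of the 3 paralogs lay far apart in every library. With the offsets the falls were smaller, -0.61 for YTHDF1, -1.72 for YTHDF2 and -1.74 for YTHDF3 on the log2 scale, and all were still called (edgeR adjusted p = 4.23e-08, 1.65e-11 and 4.02e-07). The antisense RNA YTHDF3-AS1 shares no exon bases with YTHDF3 in the annotation. It averaged 2.48 ± 0.654 CPM in Huh-7 KO and 0.383 ± 0.111 CPM in Huh-7 WT (SD, n = 3 each), a log2 fold change of 2.71 (edgeR adjusted p = 2.72e-06), which the offsets moved to 1.05 (edgeR adjusted p = 0.0504). The pseudogenes YTHDF1P1 and YTHDF2P1 had at most 2 counts in any library.

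YTHDC1 is the nuclear reader, known for roles in splicing, export and decay of chromatin-bound RNA. YTHDC1 (ENSG00000083896, chromosome 4 from 68310387 to 68350089, minus strand, 18 merged exons) had 6.11, 4.43 and 5.82 CPM in Huh-7 KO, against 27.2, 31.1 and 28.1 CPM in Huh-7 WT. It was 5.24-fold lower (log2 fold change -2.39, SE 0.15, adjusted p = 1.08e-15, edgeR), and 1.90-fold lower with the offsets (log2 fold change -0.93, edgeR adjusted p = 1.50e-06). YTHDC2 is an RNA helicase with a YTH domain, known in mouse for the entry of germ cells into meiosis. YTHDC2 (ENSG00000047188, chromosome 5 from 113513683 to 113595285, plus strand, 28 merged exons) had 1.28, 0.699 and 0.220 CPM in Huh-7 KO, from 13, 6 and 2 counts, against 6.62, 6.26 and 5.67 CPM in Huh-7 WT. Its change of -3.03 on the log2 scale (SE 0.32, edgeR adjusted p = 6.10e-10) rests on those few counts, and with the offsets it was -0.84 (SE 0.33, edgeR adjusted p = 0.0339). Both YTHDC genes were lower in every Huh-7 KO library than in any Huh-7 WT library.

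The IGF2BP paralogs gave the widest spread in Huh-7. IGF2BP1 (ENSG00000159217, chromosome 17 from 48997412 to 49055650, plus strand, 18 merged exons) had 65.1, 63.6 and 63.4 CPM in Huh-7 KO, against 178, 168 and 196 CPM in Huh-7 WT. It was 2.82-fold lower (log2 fold change -1.50, SE 0.09, adjusted p = 5.82e-16, edgeR). The direction turned with the offsets, to a log2 fold change of 0.22 (SE 0.06, edgeR adjusted p = 0.00273), and over 24 alternatives its adjusted p was 1.68e-50 to 0.00893. IGF2BP2, the paralog that adult tissues keep and that is known for binding insulin-like growth factor 2 mRNA, fell further. IGF2BP2 (ENSG00000073792, chromosome 3 from 185643739 to 185825056, minus strand, 20 merged exons) had 3.75, 2.80 and 3.74 CPM in Huh-7 KO, against 23.7, 31.0 and 27.9 CPM in Huh-7 WT. It was 7.97-fold lower, and 3.91-fold lower with the offsets (edgeR adjusted p = 5.55e-16 and 2.71e-09). IGF2BP3 (ENSG00000136231, chromosome 7 from 23310209 to 23470467, minus strand, 24 merged exons) had 1.77, 1.05 and 1.10 CPM in Huh-7 KO, from 18.01, 9 and 10.5 expected counts, against 15.3, 16.8 and 19.7 CPM in Huh-7 WT. It was 12.9-fold lower (log2 fold change -3.69, SE 0.29, adjusted p = 7.93e-10, edgeR), the largest fall of the 8 members by TMM scaling and, at -2.11 with SE 0.28, also with the offsets.

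Of the exon bases of IGF2BP3, 1521 (17.9%) overlap MALSU1, which lies on the other strand, and the strand setting of the counting is not given in the sources used here. MALSU1, an assembly factor of the large mitochondrial ribosomal subunit, went the other way. It averaged 49.2 ± 0.763 CPM in Huh-7 KO and 25.5 ± 5.19 CPM in Huh-7 WT (SD, n = 3 each; log2 fold change 0.94, and 2.0 with the offsets, edgeR adjusted p = 4.43e-08 and 1.89e-09). IGF2BP1 shares 37 and 76 exon bases with 2 antisense genes.

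**Figure D2:**
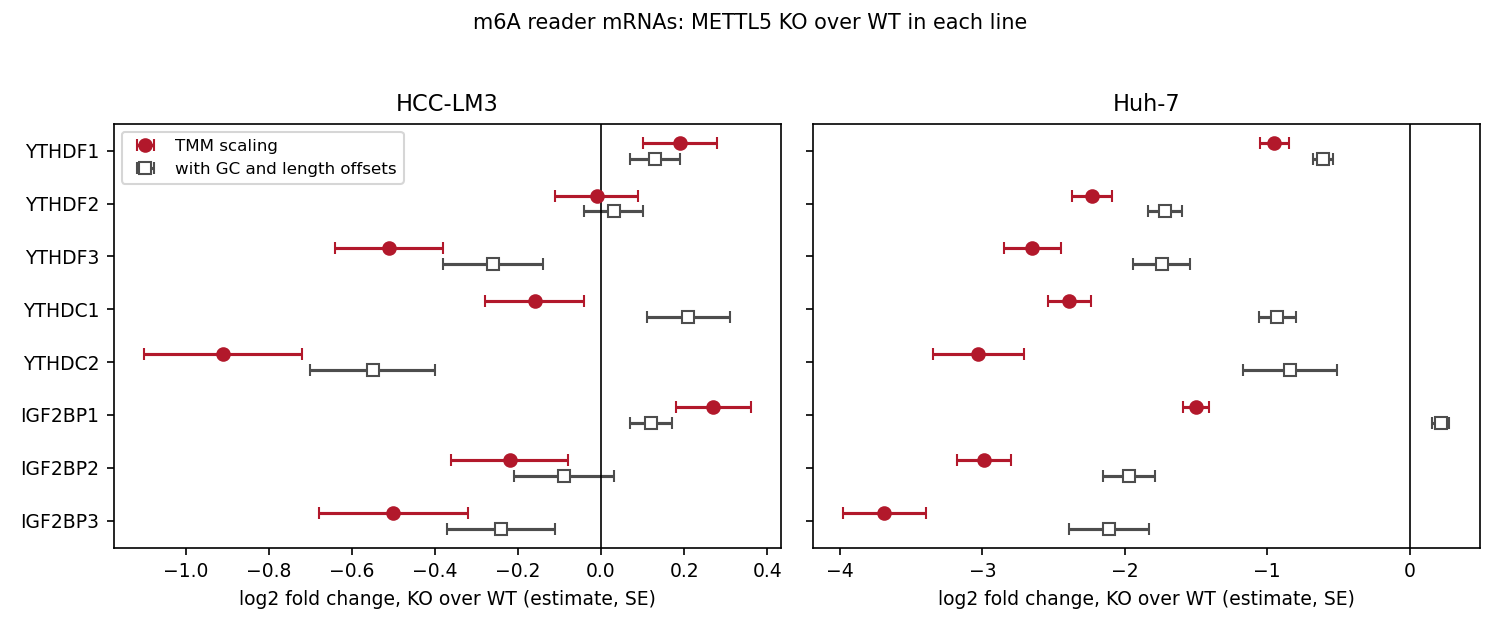
Log2 fold change of each reader mRNA (x axis, estimate and SE), KO over WT, in HCC-LM3 (left) and Huh-7 (right), by TMM scaling (filled) and with GC and length offsets (open). The x ranges of the panels differ. In Huh-7 every filled point is below 0 and the open point of IGF2BP1 is above 0, while in HCC-LM3 YTHDC2 alone is called under both fits.

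In Huh-7 the change varied with transcript GC content over all genes tested, so the members are set beside their GC classes. Across genes, the median log2 fold change was -1.88 below 42% transcript GC (2311 genes), -1.49 from 42 to 46% GC (2847 genes), -0.78 from 46 to 50% GC (2739 genes), 0.01 from 50 to 55% GC (2964 genes) and 0.61 from 55% GC upward (5619 genes). The readers with the richest transcripts, IGF2BP1 with 54.6% GC and YTHDF1 with 52.1% GC, had the smallest falls. The readers with 49.3% GC or less (YTHDF2, IGF2BP2, IGF2BP3, YTHDF3, YTHDC1 and YTHDC2) fell by 2.23 or more on the log2 scale. Each of the 8 members lay below the median of its own GC class. By deposited gene length, IGF2BP1 with 8796 bases and YTHDC2 with 6305 bases are the longest members, and the offsets moved their log2 fold changes furthest. In HCC-LM3 the change varied with GC content too, over a narrower range. The medians there were -0.38, -0.23, -0.05, 0.08 and 0.25 from the lowest to the highest GC class. In HCC-LM3 the members called lower were YTHDC2 (40.0% GC), YTHDF3 (44.8% GC) and IGF2BP3 (44.9% GC). The member called higher there was IGF2BP1. The part of transcript GC content and length in the changes of either line was not tested beyond the offsets.

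**Figure D3:**
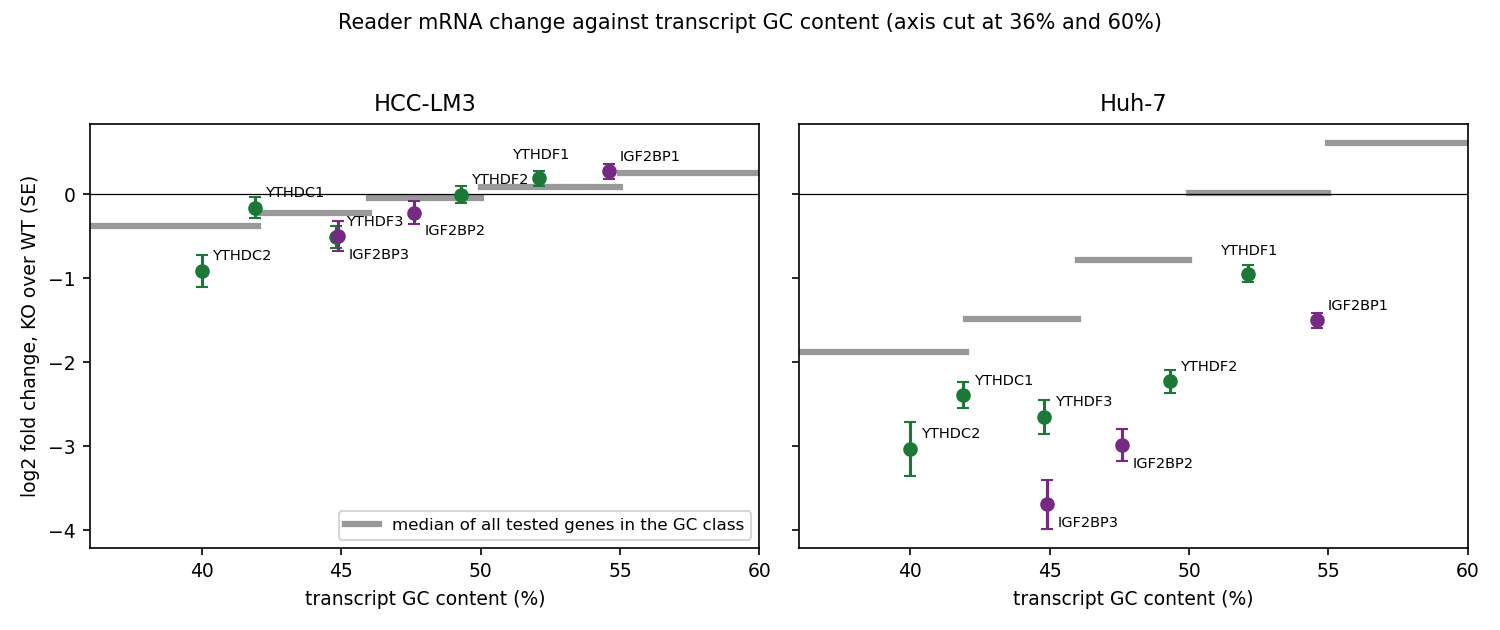
Log2 fold change, KO over WT, of each reader mRNA (y axis, points with SE, purple for IGF2BP and green for YTH genes) against the GC content of its transcripts (x axis, percent), in HCC-LM3 (left) and Huh-7 (right). Grey bars give the median of all tested genes in each GC class. In Huh-7 all 8 points lie below the bar of their class.

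In HCC-LM3 the changes were small and mixed in direction. Called were 4 of 8 members, 1 higher and 3 lower, where 26.8% of all genes tested were called, 14.0% higher and 12.9% lower. KO and WT libraries did not overlap for 3 of 8 members (YTHDF1, YTHDC2 and IGF2BP1), against 38.7% of all genes. The members' median log2 fold change was -0.19 and that of all genes 0.00. With the offsets 1 member was called, where 18.7% of all genes were called, 10.6% higher and 8.10% lower.

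YTHDC2 was the member whose HCC-LM3 change held best. It had 5.04, 5.59 and 4.24 CPM in HCC-LM3 KO, against 6.88, 9.82 and 11.2 CPM in HCC-LM3 WT. It was 1.88-fold lower (log2 fold change -0.91, SE 0.19, adjusted p = 0.000583, edgeR) and 1.46-fold lower with the offsets (log2 fold change -0.55, edgeR adjusted p = 0.0125). Over 24 alternatives its adjusted p was 2.06e-06 to 0.0621, and limma on log2(TPM + 0.1) was the setting in which it missed the threshold.

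YTHDF3 had 22.7, 27.2 and 21.0 CPM in HCC-LM3 KO, against 25.0, 38.9 and 36.9 CPM in HCC-LM3 WT. The KO and WT ranges overlapped through WT replicate 1. The log2 fold change was -0.51 (SE 0.13, adjusted p = 0.00581, edgeR). IGF2BP3 had 15.9, 16.9 and 15.1 CPM in HCC-LM3 KO, against 14.6, 28.0 and 24.8 CPM in HCC-LM3 WT, so WT replicate 1 was below all KO libraries. The log2 fold change was -0.50 (SE 0.18, adjusted p = 0.0425, edgeR). Without WT replicate 1 the log2 fold changes were -0.69 for YTHDF3, -0.74 for IGF2BP3 and -1.09 for YTHDC2 (edgeR adjusted p = 2.19e-05, 2.01e-05 and 1.68e-05). Without WT replicate 2 the calls of YTHDF3 and IGF2BP3 ended, at -0.40 and -0.31 (edgeR adjusted p = 0.0520 and 0.203). With the offsets neither was called (log2 fold changes -0.26 and -0.24, edgeR adjusted p = 0.144 and 0.249). Over 24 alternatives the adjusted p was 2.19e-05 to 0.258 for YTHDF3 and 2.01e-05 to 0.292 for IGF2BP3. Leaving out WT replicate 3 or any 1 of the HCC-LM3 KO libraries also ended the call of IGF2BP3, at adjusted p = 0.0665 to 0.148 (edgeR). So did leaving out Huh-7 KO replicate 2 or 3 or Huh-7 WT replicate 2, which share the estimate of spread (edgeR adjusted p = 0.0511 to 0.0634).

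IGF2BP1 had 76.6, 72.6 and 75.6 CPM in HCC-LM3 KO, against 60.6, 66.9 and 59.2 CPM in HCC-LM3 WT. Every KO library was above every WT library. The log2 fold change was 0.27 (SE 0.09, adjusted p = 0.0236, edgeR). It was 0.12 with the offsets and 0.11 with library totals alone (edgeR adjusted p = 0.12 and 0.308), 0.26 with no filter on low counts (edgeR adjusted p = 0.0792) and -0.01 on the log2(TPM + 1) scale (limma adjusted p = 0.966), and over 24 alternatives the adjusted p was 0.00102 to 0.967. Without WT replicate 3 or any 1 of the HCC-LM3 KO libraries the call ended (edgeR adjusted p = 0.0569 to 0.131). Without WT replicate 1 the call was kept, at 0.24 (edgeR adjusted p = 0.0181).

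The remaining members were not called in HCC-LM3. YTHDF1 had 76.9, 67.9 and 73.3 CPM in HCC-LM3 KO, against 66.0, 63.7 and 60.9 CPM in HCC-LM3 WT, a log2 fold change of 0.19 (edgeR adjusted p = 0.0923), and 0.13 with the offsets. It was called without WT replicate 1 (log2 fold change 0.22, edgeR adjusted p = 0.0341) and by DESeq2 (0.22, adjusted p = 0.0189), within a range of 0.0189 to 0.919 over 24 alternatives. YTHDF2 had 45.6, 41.6 and 42.4 CPM in HCC-LM3 KO, against 41.7, 46.2 and 42.9 CPM in HCC-LM3 WT, with overlapping ranges. Its log2 fold change was -0.01 with SE 0.10, and 0.03 with the offsets, close enough to 0 that its sign changed between settings. YTHDC1 had 10.7, 12.6 and 12.5 CPM in HCC-LM3 KO, against 12.3, 12.8 and 15 CPM in HCC-LM3 WT (log2 fold change -0.16, SE 0.12, and 0.21 with the offsets). IGF2BP2 had 14.5, 13.8 and 9.68 CPM in HCC-LM3 KO, against 13.2, 15.8 and 15.1 CPM in HCC-LM3 WT (log2 fold change -0.22, SE 0.14, and -0.09 with the offsets). These values do not show that YTHDF2, YTHDC1 and IGF2BP2 were alike in KO and WT cells.

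The difference between the lines' responses was tested as an interaction, the HCC-LM3 KO effect minus the Huh-7 KO effect. All 8 members were called, all with the Huh-7 effect further down, where 61.6% of all genes were called and 37.7% in that direction. The differences in log2 fold change ran between 1.15 for YTHDF1 (SE 0.13, adjusted p = 1.97e-09, edgeR) and 3.20 for IGF2BP3 (SE 0.36, adjusted p = 2.04e-07, edgeR), with a median of 2.18 over members and 0.39 over all genes. With the offsets 6 members were still called in that direction, against 23.4% of all genes, with a median of 1.31. IGF2BP1 was then at -0.09 (edgeR adjusted p = 0.364) and YTHDC2 at 0.29 (edgeR adjusted p = 0.569). The call of YTHDC2 also ended on log2(TPM + 1), at 0.39 (limma adjusted p = 0.199). The part of the differing library composition in these interactions was not tested beyond the offsets.

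The make-up of each family was described as the share of a paralog in the summed TPM of its family. These shares carry no offsets for GC content and length. YTHDF1 with 52.1% GC and IGF2BP1 with 54.6% GC have the richest transcripts of their families, and the part of GC content in the shares was not tested. The YTHDF genes summed to 4.60 ± 0.269 TPM in Huh-7 KO and 36.9 ± 0.745 TPM in Huh-7 WT, and the IGF2BP genes to 3.12 ± 0.255 TPM in Huh-7 KO and 35.1 ± 2.83 TPM in Huh-7 WT (SD, n = 3 each). YTHDF1 took 82.1, 77.1 and 79.4% of its family in Huh-7 KO, against 56.9, 53.1 and 55.9% in Huh-7 WT. IGF2BP1 took 80.1, 85.2 and 72.4% of its family in Huh-7 KO, against 61.7, 54.8 and 58.9% in Huh-7 WT. Neither share overlapped between KO and WT, and both exact two-sided permutation tests gave p = 0.1, the smallest that 3 libraries against 3 allow. The shares of YTHDF2 (14.0 ± 2.28% in Huh-7 KO and 28.2 ± 1.11% in Huh-7 WT) and IGF2BP2 (10.2 ± 2.40% in Huh-7 KO and 27.7 ± 4.64% in Huh-7 WT) were lower, each without overlap. That of YTHDF3 was 6.52 ± 3.03% in Huh-7 KO and 16.5 ± 2.83% in Huh-7 WT, and that of IGF2BP3 10.6 ± 6.09% in Huh-7 KO and 13.8 ± 2.03% in Huh-7 WT, where the IGF2BP3 shares overlapped by TPM and the YTHDF3 shares did not. In RPKM the IGF2BP3 shares were 2.96 to 4.66% in Huh-7 KO and 11.6 to 13.2% in Huh-7 WT, without overlap. The differences in the family sums were also smaller in RPKM, with 12.6 ± 0.269 in Huh-7 KO and 35.1 ± 0.404 in Huh-7 WT for YTHDF, and 8.59 ± 0.307 in Huh-7 KO and 32.6 ± 2.20 in Huh-7 WT for IGF2BP (SD, n = 3 each).

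In HCC-LM3 the families were more even. The YTHDF genes summed to 67.2 ± 5.15 TPM in HCC-LM3 KO and 74.8 ± 11 TPM in HCC-LM3 WT, and the IGF2BP genes to 27.7 ± 3.22 TPM in HCC-LM3 KO and 35.8 ± 7.23 TPM in HCC-LM3 WT (SD, n = 3 each). By TPM YTHDF1 took 51.9, 51.5 and 54.0% in HCC-LM3 KO, against 51.0, 44.2 and 45.2% in HCC-LM3 WT (exact permutation p = 0.1, the smallest possible). By RPKM its ranges overlapped, at 44.8 to 49.0% in HCC-LM3 KO and 37.8 to 44.9% in HCC-LM3 WT. YTHDF2 took 35.7 to 36.4% in HCC-LM3 KO and 36.8 to 38.8% in HCC-LM3 WT by TPM, but 31.0 to 32.4% in HCC-LM3 KO and 30.5 to 32.1% in HCC-LM3 WT by RPKM, where the ranges overlapped and the direction of the means turned. IGF2BP1 and IGF2BP3 had like shares of their family in WT by TPM, at means of 37.9 and 37.3%, while by RPKM IGF2BP1 lay above IGF2BP3, at 43.0 and 31.1%, without overlap. By TPM, in HCC-LM3 KO IGF2BP1 took 42.9, 48.1 and 52.3%, and IGF2BP3 took 31.9, 27.6 and 30.5% (exact permutation p = 0.200 for each share, KO against WT). WT replicate 1, with 46% IGF2BP1 and 30.6% IGF2BP3, lay inside the KO range for both.

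**Figure D4:**
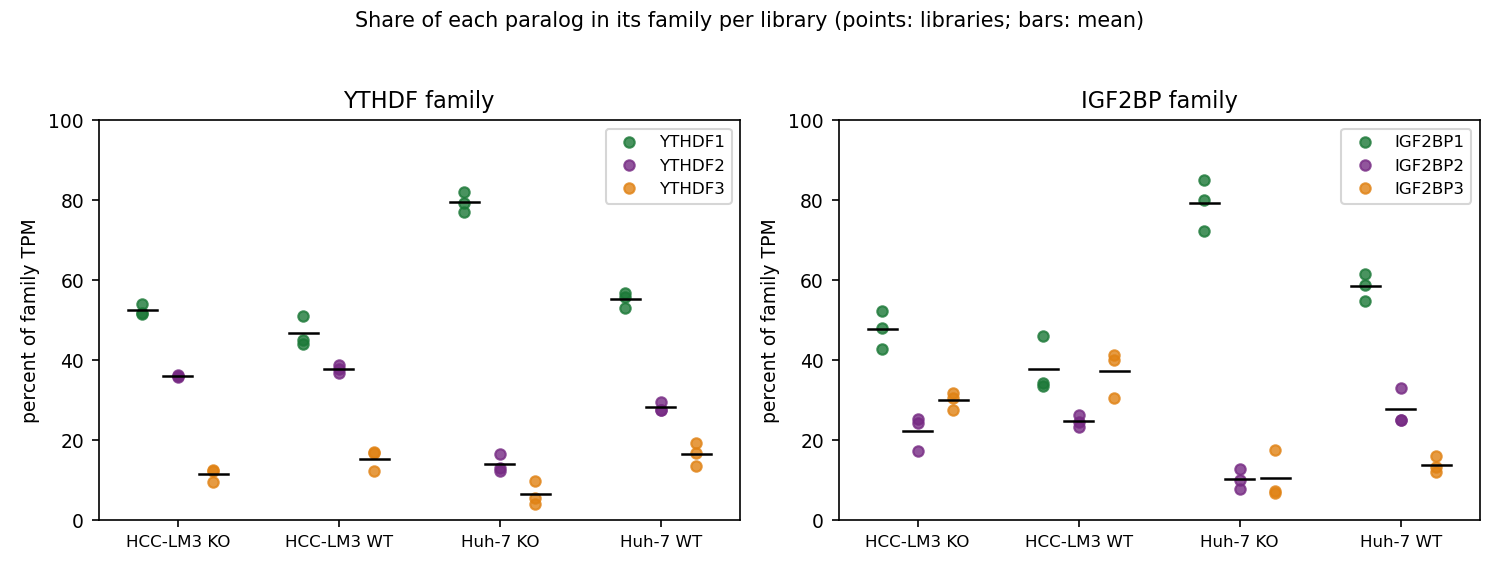
Share of each paralog in the summed TPM of its family (y axis, percent, from 0 to 100) in each library of the 4 groups (x axis), with bars at the group means, for the YTHDF family (left) and the IGF2BP family (right). YTHDF1 and IGF2BP1 average 79.5 and 79.3% of their families in Huh-7 KO, with every Huh-7 KO library above all libraries of the other groups. The shares carry no offsets for GC content and length.

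Between the untreated lines, 6 of 8 members were called, 3 higher and 3 lower in HCC-LM3 than in Huh-7, where 82.8% of all genes were called, 41.8% higher and 41.0% lower. IGF2BP1 was lower in HCC-LM3 WT than in Huh-7 WT with a log2 fold change of -1.54 (SE 0.09), as were IGF2BP2 at -0.90 (SE 0.14) and YTHDC1 at -1.11 (SE 0.12). The edgeR adjusted p was 5.06e-17, 3.50e-07 and 4.88e-10. These values keep their direction with the offsets, at -1.67, -1.52 and -1.85. On the log2(TPM + 1) scale the differences of IGF2BP2 and YTHDC1 were -0.13 and -0.23 and were not called (limma adjusted p = 0.601 and 0.126). YTHDF2, YTHDF3 and YTHDC2 were higher in HCC-LM3 WT, with log2 fold changes of 0.81, 0.82 and 0.59 (edgeR adjusted p = 7.30e-09, 4.25e-06 and 0.00544). With the offsets YTHDF2 and YTHDC2 were still called, at 0.35 and 0.38 (edgeR adjusted p = 0.000217 and 0.0239), and YTHDF3 was at 0.03 (edgeR adjusted p = 0.835). IGF2BP3 and YTHDF1 missed the threshold at 0.39 and 0.13 (edgeR adjusted p = 0.0504 and 0.172), and both were slightly negative with the offsets, at -0.27 and -0.03. Both were called higher with library totals alone (0.83 and 0.55, edgeR adjusted p = 0.00159 and 5.17e-07) and on log2(TPM + 1) (1.28 and 0.74, limma adjusted p = 0.000260 and 1.13e-06). YTHDF1 was also called without HCC-LM3 WT replicate 3 (0.22, edgeR adjusted p = 0.0434). Without HCC-LM3 WT replicate 1, IGF2BP3 was called at 0.67 (edgeR adjusted p = 9.63e-06), within a range of 9.63e-06 to 0.161 over 21 alternatives.

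Between the KO cells all 8 members were called higher in HCC-LM3 than in Huh-7, where 88.1% of all genes were called and 51.1% called higher. The log2 fold changes were 0.23 for IGF2BP1 (SE 0.09, adjusted p = 0.0229, edgeR), 1.12 for YTHDC1, 1.27 for YTHDF1, 1.88 for IGF2BP2, 2.71 for YTHDC2, 2.95 for YTHDF3, 3.03 for YTHDF2 and 3.58 for IGF2BP3. IGF2BP1 and YTHDC1 turned round with the offsets, to -1.76 and -0.72 (edgeR adjusted p = 7.20e-18 and 5.66e-05), and IGF2BP1 was at -0.24 with DESeq2 size factors. The call of IGF2BP1 ended without HCC-LM3 KO replicate 1 (0.20, edgeR adjusted p = 0.0847) and with a filter at 1 CPM in 3 libraries (0.17), and over 21 alternatives its adjusted p was 7.20e-18 to 0.0847. With the offsets YTHDF1, YTHDF2, YTHDF3 and IGF2BP3 were still called higher, at 0.71, 2.10, 1.51 and 1.61. IGF2BP2 and YTHDC2 were no longer called with the offsets (0.36 and 0.67, edgeR adjusted p = 0.0968 and 0.0670). The KO and WT libraries used for the line comparisons are those of the KO against WT comparisons, so the values are not independent of them.

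**Figure D5:**
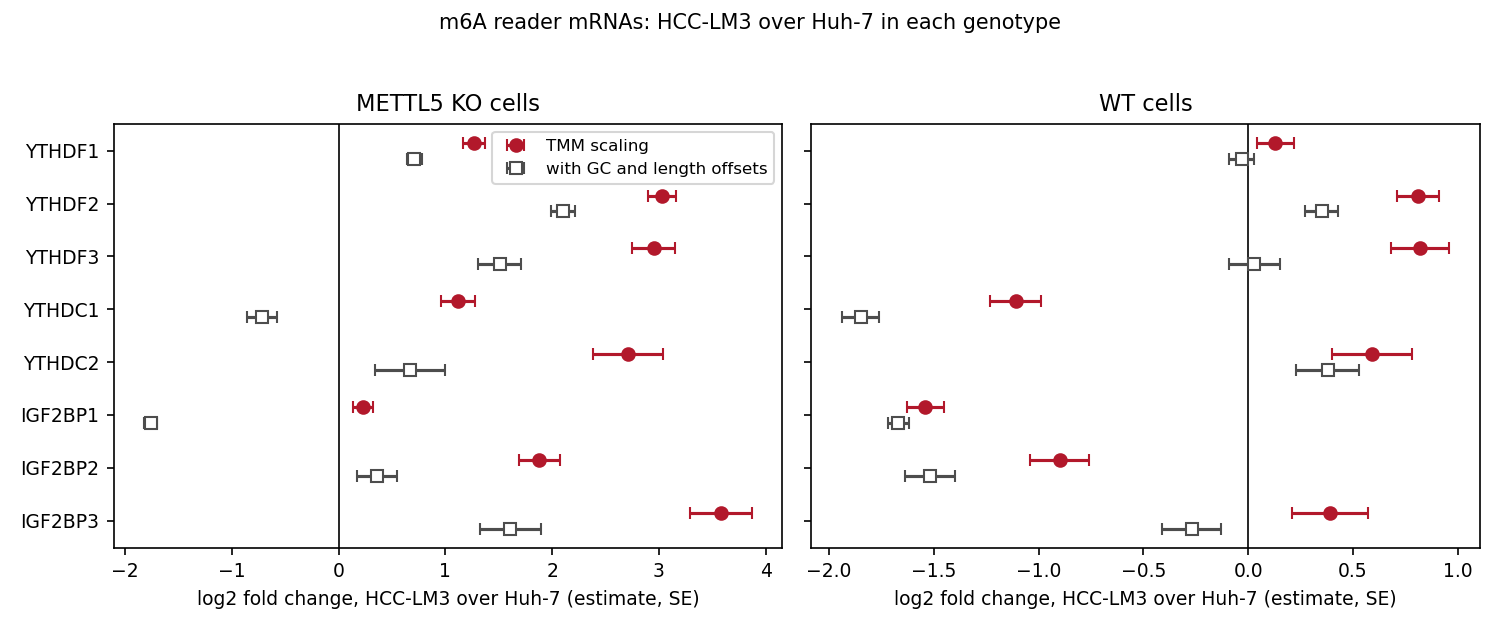
Log2 fold change of each reader mRNA (x axis, estimate and SE), HCC-LM3 over Huh-7, in METTL5 KO cells (left) and WT cells (right), by TMM scaling (filled) and with GC and length offsets (open). The x ranges of the panels differ. IGF2BP1 lies at 0.23 in KO cells and -1.54 in WT cells by TMM scaling, and with the offsets at -1.76 in KO cells and -1.67 in WT cells.

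The 12 libraries also served to describe which members varied together. Pearson's r of log2 CPM over 12 libraries, which form 4 groups of 3 and so mostly reflect group means, was highest between YTHDF3 and IGF2BP3 (0.986), YTHDF1 and YTHDF2 (0.976), and YTHDF2 and YTHDF3 (0.966). The member most like YTHDC1 was IGF2BP2 (0.961). For IGF2BP1, r with the other members ran between 0.129 with YTHDF2 and 0.807 with YTHDC1. Among 9937 genes averaging 5 CPM or more, the gene most like YTHDF1 was NUMA1 (r = 0.995), the one most like YTHDF2 was GIT2 (r = 0.997) and the one most like YTHDF3 was ANKRD28 (r = 0.997). NIPBL was most like YTHDC1 (r = 0.992) and ZMYM4 most like YTHDC2 (r = 0.991). KIAA0319L was most like IGF2BP1 (r = 0.994), GREB1L most like IGF2BP2 (r = 0.994) and LPP most like IGF2BP3 (r = 0.998).

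The readers act with writers, erasers and decay or stability factors, whose genes were counted by list. The shares of all genes called higher and lower in each line, given above with and without the offsets, are the background for these counts. With library totals alone, 7.25% of all genes were called higher and 20.7% lower in HCC-LM3 KO. With library totals alone the list medians were -2.86 to -1.87 in Huh-7 and -0.38 to -0.05 in HCC-LM3. With the offsets the HCC-LM3 medians lay between -0.18 and 0.11, and those of the other readers, the nuclear partners, the stability partners and the let-7 axis turned positive. Of 13 writer genes and their partners, 4 were called higher and 9 lower in Huh-7 KO, METTL5 among them, and 1 higher and 4 lower in HCC-LM3 KO (1 higher and 3 lower with the offsets). The medians were -1.70 in Huh-7 and -0.12 in HCC-LM3, against -0.30 and 0.00 over all genes. With the offsets the Huh-7 writers stood at 5 higher and 1 lower. METTL14, the RNA-binding partner of the catalytic METTL3, averaged 0.786 ± 0.492 CPM in Huh-7 KO and 4.38 ± 0.438 CPM in Huh-7 WT, and 2.28 ± 0.475 CPM in HCC-LM3 KO and 4.25 ± 0.248 CPM in HCC-LM3 WT (SD, n = 3 each). Its log2 fold change in Huh-7 was -2.46, and -0.27 and not called with the offsets (edgeR adjusted p = 2.05e-08 and 0.532), and in HCC-LM3 it was -0.90, and -0.58 with the offsets (edgeR adjusted p = 0.00182 and 0.0362). RBM15, an adaptor of the writer complex, rose in HCC-LM3, with 26.1 ± 1.17 CPM in KO and 8.59 ± 1.27 CPM in WT (log2 fold change 1.60, edgeR adjusted p = 2.74e-10, and 1.47 with the offsets). In Huh-7 RBM15 was called lower in KO, at -0.94 (edgeR adjusted p = 2.19e-06), and not called with the offsets, at -0.36 (edgeR adjusted p = 0.0508). Of the 2 erasers, FTO was called lower in both lines, at -2.01 in Huh-7 (edgeR adjusted p = 7.41e-11) and -0.62 in HCC-LM3 (edgeR adjusted p = 0.00127), and at -1.09 and -0.46 with the offsets. ALKBH5 was called higher in Huh-7 KO (log2 fold change 0.49, edgeR adjusted p = 1.70e-05, and 0.75 with the offsets).

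Of 14 other RNA-binding proteins reported to read m6A, 1 was called higher and 12 lower in Huh-7 KO (median -1.53, 4 higher and 7 lower with the offsets), and 1 higher and 3 lower in HCC-LM3 KO (median -0.11, 1 higher and 2 lower with the offsets). HNRNPA2B1, a nuclear protein linked to m6A in microRNA processing, averaged 28.4 ± 2.07 CPM in Huh-7 KO and 205 ± 18.8 CPM in Huh-7 WT, and 262 ± 11.5 CPM in HCC-LM3 KO and 379 ± 18.2 CPM in HCC-LM3 WT (SD, n = 3 each). Both differences were called (edgeR adjusted p = 6.84e-21 and 7.92e-05), the HCC-LM3 one not with the offsets (edgeR adjusted p = 0.201). EIF3A, a subunit of the initiation factor that can meet m6A in the 5′UTR, fell by 3.41 on the log2 scale in Huh-7 KO (edgeR adjusted p = 3.20e-16), and by 1.37 with the offsets.

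Of 32 decay partners of YTHDF2 and YTHDC2 (21 deadenylation, decapping and other decay factors, 9 subunits of the endonucleases RNase P and MRP, RIDA and MEIOC), 6 were called higher and 22 lower in Huh-7 KO (median -0.95), and 3 higher and 8 lower in HCC-LM3 KO (median -0.19). Of the 6 called higher in Huh-7 KO, 5 were RNase P and MRP subunits (POP4, POP5, POP7, RPP25 and RPP30, with log2 fold changes of 0.89 to 1.95), and the other was CNOT9. Of the 21 decay factors, 1 was called higher and 19 lower in Huh-7 KO, and 6 higher and 9 lower with the offsets. Over the whole list the Huh-7 split with the offsets was 13 higher and 11 lower. In HCC-LM3 3 genes were called with the offsets, each of them lower, and 2 higher and 15 lower with library totals. CNOT6, a catalytic deadenylase of the CCR4-NOT complex, averaged 3.41 ± 0.717 CPM in Huh-7 KO and 23.7 ± 0.481 CPM in Huh-7 WT (SD, n = 3 each; log2 fold change -2.78, and -1.19 with the offsets, edgeR adjusted p = 1.17e-16 and 1.50e-07). In HCC-LM3 the decapping factor DCP1A fell by 0.90 on the log2 scale (edgeR adjusted p = 0.000140), and by 0.80 with the offsets. UPF1, the helicase of nonsense-mediated decay, was called higher in HCC-LM3 KO at 0.42 (edgeR adjusted p = 0.00180) and not called with the offsets, at 0.13 (edgeR adjusted p = 0.0805). In Huh-7 KO UPF1 fell by 1.49 (edgeR adjusted p = 4.99e-15), and by 0.82 with the offsets. Of 12 nuclear partners of YTHDC1, 1 was called higher and 10 lower in Huh-7 KO (median -1.58, 3 higher and 6 lower with the offsets), and 2 higher and 4 lower in HCC-LM3 KO (median -0.04). With the offsets 2 were called in HCC-LM3 KO, both higher. SRSF10, a splicing regulator, fell by 1.92 on the log2 scale in Huh-7 KO (edgeR adjusted p = 1.06e-14), and by 1.12 with the offsets.

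Of 14 stability partners of the IGF2BP proteins, 1 was called higher and 12 lower in Huh-7 KO (median -1.75), and 2 higher and 11 lower with the offsets. In HCC-LM3 KO 2 were called higher and 4 lower (median -0.01), and 1 higher and 1 lower with the offsets. PABPC1, the cytoplasmic poly(A)-binding protein, averaged 34.6 ± 2.05 CPM in Huh-7 KO and 207 ± 16.8 CPM in Huh-7 WT (SD, n = 3 each; log2 fold change -2.58, and -2.24 with the offsets, edgeR adjusted p = 2.02e-19 and 1.23e-12). Of 20 RNAs known as IGF2BP cargo, 4 were called higher and 13 lower in Huh-7 KO (median -1.06, 5 higher and 11 lower with the offsets). In HCC-LM3 KO 5 were called higher and 5 lower. The median there was 0.07 and turned to -0.09 with the offsets (2 higher and 3 lower) and -0.05 with library totals (3 higher and 7 lower). Some genes stand in more than 1 list, and LIN28B and HMGA2 are counted both as cargo and in the let-7 axis. Of 14 genes of the let-7 and oncofetal axis, 13 were tested, and 1 was called higher and 12 lower in Huh-7 KO (median -1.54, 1 higher and 11 lower with the offsets). In HCC-LM3 KO 3 were called, each of them higher (median -0.08), also with the offsets, but 1 higher and 1 lower with library totals. HMGA2, a chromatin protein whose 3′UTRs hold the let-7 site at 4 places, averaged 15.4 ± 1.71 CPM in Huh-7 KO and 41.8 ± 0.487 CPM in Huh-7 WT, and 3.04 ± 0.157 CPM in HCC-LM3 KO and 2.15 ± 0.268 CPM in HCC-LM3 WT (SD, n = 3 each). Both differences were called, in opposite directions (edgeR adjusted p = 2.63e-12 and 0.0168), and their difference was called too (interaction 1.94, edgeR adjusted p = 3.05e-10). With the offsets the log2 fold changes were -2.03 in Huh-7 and 0.43 in HCC-LM3, both called.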

How the data were processed

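The members and gene lists were chosen with earlier results of these data known. Per the file headers, the authors deposited for each of 58884 genes its length and, in every library, an expected count and a TPM. The deposited expected counts are not normalized, and 7.49 to 13.3% of them per library are not whole. The deposited TPM are the authors' length-scaled values. The extraction used TRIzol and libraries were made from 1 µg of total RNA, per the labels' protocols. Bowtie 0.12.2 and 2 builds, mm8 and mm9 (both mouse), are named per the submitters' processing notes. How reads were counted, on which human build and with which strand setting is not given in the sources used here.

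Counts were rounded and fitted with edgeR 4.0.16 (R 4.3.3; filterByExpr, TMM, robust quasi-likelihood, 1 mean per group, 8 residual degrees of freedom), after the script was tested on simulated data. Calls used a two-sided Benjamini-Hochberg adjusted p under 0.05. Offsets were loess fits (span 0.3) on GC content and length, trained on the better expressed tested genes and applied to all tested genes. GC content was known for 99.7% of tested genes, and the rest took the median. Annotation was GENCODE 29 on GRCh38, which held 99.54% of identifiers. Alternatives were DESeq2 1.42.0, limma 3.58.1 (voom, and log2 of TPM plus 1 or 0.1), library totals, filters, lines alone, a replicate block and leaving out libraries. All 8 members, METTL5, up to 4 called genes per list and contrast and the genes most like each member could be named, and some of these are left out of the text. LIN28B, HMGA2, MALSU1, YTHDF3-AS1 and the pseudogenes were named beside results that touch them. Also outside the rule, and named with the results known, were POP4, POP5, POP7, RPP25, RPP30 and CNOT9. The same holds for RBM15 and UPF1 in Huh-7 and for single hepatocyte markers.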

Additional observations from a re-analysis of the deposited data

Results flagged for a closer look

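The METTL5 KO effect differed between the lines for all 8 reader mRNAs by the interaction test (edgeR, HCC-LM3 KO effect minus Huh-7 KO effect, log2 scale). Of all genes tested, 61.6% were called, 37.7% in the direction of the members. The difference was 1.15 for YTHDF1, 2.22 for YTHDF2, 2.14 for YTHDF3, 2.23 for YTHDC1, 2.12 for YTHDC2, 1.76 for IGF2BP1, 2.78 for IGF2BP2 and 3.20 for IGF2BP3. With GC and length offsets it was 0.74 for YTHDF1, 1.75 for YTHDF2, 1.48 for YTHDF3, 1.13 for YTHDC1 and 1.87 for both IGF2BP2 and IGF2BP3, all still called. IGF2BP1 at -0.09 and YTHDC2 at 0.29 were not called with the offsets. Of all genes tested, 23.4% were called in the direction of the members with the offsets.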

How the results depend on the processing

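In HCC-LM3 the 4 reader calls dropped to 1 with GC and length offsets (also with the replicate block) and on log2(TPM + 1), and to 0 on log2(TPM + 0.1). They ranged over 2 to 5 when 1 library was left out. The other counts held at 8 of 8 in Huh-7, 8 of 8 for the interaction except 6 with the offsets and 7 on log2(TPM + 1), 5 to 8 between WT lines and 6 to 8 between KO lines over all settings. The shares of all genes called in these comparisons by TMM scaling are given above. With offsets, signs reversed for YTHDC1 in HCC-LM3 (0.21), IGF2BP1 in Huh-7 (0.22), the interaction of IGF2BP1 (-0.09), YTHDF1 and IGF2BP3 between WT lines (-0.03 and -0.27) and YTHDC1 and IGF2BP1 between KO lines (-0.72 and -1.76). The block with offsets gave the same 0.21, 0.22 and -0.09. YTHDF2 in HCC-LM3 was at 0.01 with DESeq2 scaling or its test, 0.03 with offsets, 0.02 without WT replicate 2, 0.00 without KO replicate 2 and -0.06 to 0.02 over all libraries left out. IGF2BP1 was at -0.01 in HCC-LM3 on both TPM scales and at -0.24 between KO lines with DESeq2 scaling or its test. Shares computed from counts and gene length in place of TPM were 47.4, 40.3, 74.8 and 51.9% for YTHDF1 in HCC-LM3 KO, HCC-LM3 WT, Huh-7 KO and Huh-7 WT, and 53.5 and 63.0% for IGF2BP1 in HCC-LM3 KO and Huh-7 WT. Without 1 library the TPM shares of YTHDF1 were 51.7 to 53.0, 44.7 to 48.1, 78.2 to 80.7 and 54.5 to 56.4% in those groups, and those of IGF2BP1 45.5 to 50.2, 33.9 to 40.1, 76.3 to 82.7 and 56.8 to 60.3%. Of the recomputed member values, 152 of 192 in HCC-LM3 and 190 of 192 in Huh-7 kept direction and side of the threshold. The causes were not tested. Same-numbered KO and WT libraries did not deviate together (correlations -0.116, 0.232 and -0.409 in HCC-LM3, -0.032, -0.0462 and 0.0933 in Huh-7), and the replicate block left the counts of calls at 4, 8 and 8. The block could not be fitted to the line comparisons, nor lines fitted alone to them or the interaction. Low counts limit YTHDC2 and IGF2BP3 in Huh-7 KO.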
